A study of Mus musculus with 6 samples.

Results

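Pyruvate reaches the mitochondrial matrix through a carrier and is turned into acetyl-CoA by the pyruvate dehydrogenase complex, whose activity is set by kinases and phosphatases. The 9 genes described here are Pdk1, Pdk2, Pdk3 and Pdk4 for the kinases, Pdp1 for a phosphatase, Pdha1 and Pdhb for the subunits of the E1 enzyme, and Mpc1 and Mpc2 for the carrier. They were chosen by name, and all 9 were found among the 15796 genes with deposited FPKM values (fragments scaled by exon length and library size). All 9 passed the filter of a mean FPKM of at least 1 that left 13120 genes for testing. RNA had been sequenced from MC3T3-E1, a line of pre-osteoblastic mouse cells. A plasmid carrying Hsd11b1 had been transfected into the cells of 3 libraries, labelled as the Hsd11b1 overexpression genotype, and a plasmid carrying EGFP into the cells of 3 control libraries, labelled WT. These are called Hsd11b1 libraries and EGFP libraries below, numbered 1 to 3 in each group. Both groups had received 11-DHC (11-dehydrocorticosterone), an inactive steroid from which the Hsd11b1 enzyme makes corticosterone, and there were no cells without it. The promoter of the plasmid is not given in the labels, and the cells are 1 line. Whether the libraries came from separate cultures is not given either, so each p-value covers no more than the spread among these libraries.

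The E1 enzyme decarboxylates pyruvate, and phosphorylation of its alpha subunit by a pyruvate dehydrogenase kinase switches it off. The phosphatases remove the phosphate and switch it on again, so that kinase activity spares pyruvate and phosphatase activity sends it into the citric acid cycle. Pdk4 is known from muscle and liver as the kinase gene induced by fasting, fatty acids and glucocorticoids, and Pdk1 as a target of the hypoxia factor HIF-1. Osteoblasts are known for turning much of their glucose into lactate even with oxygen present.

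Hsd11b1 itself stood at 323, 315 and 345 FPKM in the Hsd11b1 libraries, against 1.90, 0.404 and 0.275 FPKM in the EGFP libraries. Reads of the plasmid and of the cells' own gene cannot be told apart in this value. Recovered library totals were 18290785, 18655658 and 58665344 reads in Hsd11b1 libraries 1 to 3, against 19932434, 34948123 and 16264226 reads in EGFP libraries 1 to 3, so Hsd11b1 library 3 and EGFP library 2 were the deepest. Of 13 pre-osteoblast marker genes 11 were listed, with summed levels of 3557 to 3728 FPKM in Hsd11b1 and 3454 to 3732 FPKM in EGFP libraries. Alpl and Bglap were not listed. Ibsp was listed but fell under the filter, at 0.973 to 1.06 FPKM in Hsd11b1 and 0.0243 to 0.208 FPKM in EGFP libraries, without overlap. Of the 10 tested, 4 rose (Runx2, Dlx5, Sparc and Postn) and 1 fell (Cdh11), against 12.1% of all tested genes called in either direction. With 1 library left out in turn, the call of Runx2 was kept in 0 of 6 fits, that of Cdh11 in 1, of Sparc in 2, of Dlx5 in 4 and of Postn in 6. Markers of other cell types were few or low, with 1 of 8 adipocyte markers listed (Fabp4, 1.14 to 1.36 against 0.101 to 0.159 FPKM), 1 of 8 muscle markers (Des, 0.443 to 0.510 against 0.401 to 0.625 FPKM), 3 of 6 endothelial markers (summed 0.540 to 0.639 against 0.418 to 0.452 FPKM) and 3 of 8 macrophage markers (Cd68, Csf1r and Lyz2, summed 11.5 to 12.7 against 11.9 to 13.4 FPKM, with Ptprc and Adgre1 not listed). The part of these other cell types in the results below was not tested.

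The start-site windows of 2 kinase genes are shown because the groups stood apart in both, with Pdk4 higher and Pdk1 lower in Hsd11b1 libraries. Each runs from 250 bases before to 50 bases after an annotated start (RefSeq, GRCm38.p6), 5′ to 3′ on the gene's strand. Capitals mark matches to any of 4 motifs searched on both strands, which were the glucocorticoid receptor half-site AGAACA, the FOXO site GTAAACA, the hypoxia response core ACGTG and the CCAAT box CCAAT.
Pdk4, chr6:5496229-5496528, minus strand: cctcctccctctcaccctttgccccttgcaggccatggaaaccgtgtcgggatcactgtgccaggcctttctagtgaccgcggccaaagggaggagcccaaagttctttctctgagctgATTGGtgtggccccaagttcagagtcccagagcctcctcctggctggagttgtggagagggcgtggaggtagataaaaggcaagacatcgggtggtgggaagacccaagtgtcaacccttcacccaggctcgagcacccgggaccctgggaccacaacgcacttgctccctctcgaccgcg
Pdk1, chr2:71872974-71873273, plus strand: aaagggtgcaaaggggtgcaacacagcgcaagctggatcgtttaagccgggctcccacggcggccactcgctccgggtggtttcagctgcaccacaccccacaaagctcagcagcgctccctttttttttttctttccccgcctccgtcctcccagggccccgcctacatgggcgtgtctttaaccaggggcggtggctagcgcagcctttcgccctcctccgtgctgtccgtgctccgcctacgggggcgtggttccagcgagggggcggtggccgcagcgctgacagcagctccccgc
The Pdk4 window held 1 match, a CCAAT box on the opposite strand beginning at base 120 of the window, and none of the other motifs. The Pdk1 window held none of the 4. A second annotated start of Pdk1 (chr2:71874654-71874953) had 2 half-sites, and the 3 motifs other than the half-site were absent from it. Of 32851 windows of this length in the RefSeq table, 19.0% held the half-site, 3.65% the FOXO site, 19.6% the hypoxia core and 37.4% the CCAAT box. A missing match says only that these letters are not in this window. Windows were found for 8 of the 9 genes (11 windows, none for Pdp1).

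Of the 9 genes, Pdk4 rose with Hsd11b1 overexpression, averaging 51.8 ± 3.57 FPKM in Hsd11b1 libraries and 27.1 ± 1.22 FPKM in EGFP libraries (SD, n = 3 each). The other 8 genes did not pass the threshold, an adjusted p under 0.05 in limma's test on log2(FPKM + 1) over all genes tested. In 3 of these 8 the libraries of the groups did not overlap, with Pdp1 and Pdha1 higher and Pdk1 lower in Hsd11b1 libraries. The remaining 5 genes, Pdk2, Pdk3, Pdhb, Mpc1 and Mpc2, had overlapping libraries. In bulk RNA such as this, fewer cells expressing a gene and less of its RNA per cell cannot be told apart.

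A call in 1 of 9 genes is 11.1%, close to the background of 12.1% of all tested genes called in either direction (6.22% higher and 5.84% lower), so the number of calls is not particular to these genes. Groups that did not overlap were seen in 4 of the 9 genes (44.4%), against 30.8% of all tested genes. An unadjusted limma p under 0.05 was reached by those same 4 genes, Pdk4, Pdk1, Pdp1 and Pdha1, against 25.6% of all tested genes. In the authors' deposited table, 4 of the 9 genes had an adjusted p under 0.05, 3 higher (Pdk4, Pdp1 and Pdha1) and 1 lower (Pdk1). That compares with 13.1% of its 15796 genes, which include genes under the filter that all 9 passed. The 9 genes were chosen with earlier results of these data known, so these shares do not test whether they change more often than other genes.

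**Figure D1:**
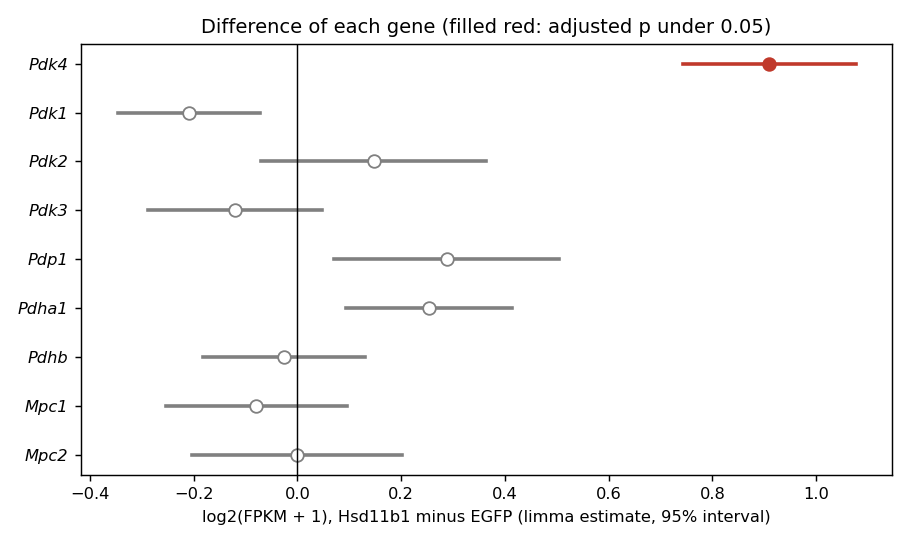
The log2(FPKM + 1) difference of each gene, Hsd11b1 minus EGFP, from limma, with lines for the 95% confidence interval and a filled red point for an adjusted p under 0.05. Pdk4 at 0.91 stands apart from the other 8, whose estimates lie between -0.21 and 0.29.

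Pdk4 (ENSMUSG00000019577, chr6:5483351-5496309, minus strand, GRCm38) encodes the kinase isoform known to respond to nutritional and hormonal state. Its level was 52.4, 55.1 and 48.0 FPKM in Hsd11b1 libraries 1 to 3, against 28.4, 26.0 and 26.9 FPKM in EGFP libraries 1 to 3. Every Hsd11b1 library was far above every EGFP library, and the spread inside each group was small beside the gap. The ratio of the means was 1.91, and the log2 difference was 0.91 (SE 0.07, 95% confidence interval 0.74 to 1.08, which is a fold of 1.67 to 2.11 on the FPKM + 1 scale). In limma the adjusted p was 0.00017, and the gene ranked 78th by p among the 13120 tested. By size of the difference it was less extreme, since 103 of the 816 genes called higher had a larger one. The exact two-sided permutation test gave p = 0.1, the smallest that 3 libraries against 3 allow. The values rest on 3366, 3608 and 9891 recovered reads in Hsd11b1 libraries, against 1989, 3190 and 1537 reads in EGFP libraries, so counting error was small beside the difference. In the authors' deposited table Pdk4 had a log2 fold change of 0.93 and an adjusted p of 1.85e-27.

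Pdk1 (ENSMUSG00000006494, chr2:71873224-71903858, plus strand), the hypoxia-responsive kinase gene, had the opposite sign. Levels were 7.75, 7.85 and 7.68 FPKM in Hsd11b1 libraries, against 9.24, 9.17 and 8.96 FPKM in EGFP libraries. The groups stood apart without overlap, with little spread in either. The log2 difference was -0.21 (SE 0.06, 95% confidence interval -0.35 to -0.07), and limma's adjusted p of 0.0594 missed the threshold. The authors' deposited table gave a log2 fold change of -0.24 and an adjusted p of 0.0300. Pdk1 passed in 2 of 17 alternatives, limma's arrayWeights and voom on recovered reads, at adjusted p of 0.0276 and 0.0382. It was called in 0 of 6 fits that left out a library (limma adjusted p 0.112 to 0.176).

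Pdk3 (ENSMUSG00000035232, chrX:93764607-93832201, minus strand), an isoform known for high catalytic activity, stood at 22.1, 20.8 and 19.6 FPKM in Hsd11b1 libraries, against 23.7, 21.2 and 23.4 FPKM in EGFP libraries. The ranges overlapped, and the log2 difference was -0.12 (95% confidence interval -0.29 to 0.05, limma adjusted p = 0.360). Pdk2 (ENSMUSG00000038967, chr11:95026258-95041354, minus strand), a kinase isoform expressed in most tissues, stood at 5.84, 6.42 and 6.01 FPKM in Hsd11b1 libraries, against 4.63, 5.56 and 6.10 FPKM in EGFP libraries. Its EGFP libraries were spread more widely than its Hsd11b1 libraries, and the log2 difference of 0.15 (95% confidence interval -0.07 to 0.36, limma adjusted p = 0.392) was within that spread. For these isoforms the intervals leave room for changes in either direction, and they lie wholly below that of Pdk4.

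**Figure D2:**
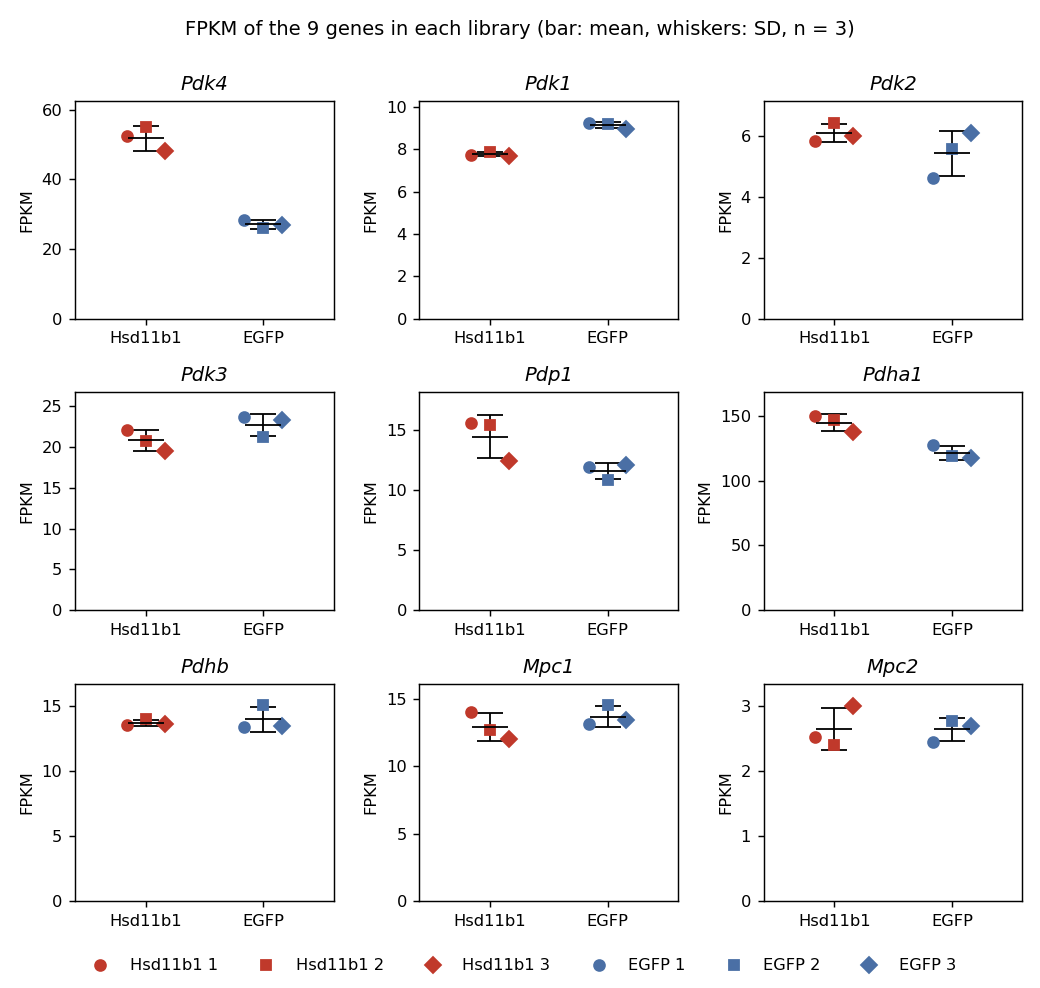
FPKM of each of the 9 genes in every library, Hsd11b1 left and EGFP right, with the group mean as a bar and the SD as whiskers (n = 3). The Hsd11b1 libraries of Pdk4 lie between 48.0 and 55.1 FPKM and its EGFP libraries between 26.0 and 28.4 FPKM, while the points of Pdhb, Mpc1 and Mpc2 overlap.

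FPKM is scaled by exon length, here the union of all annotated exons, so levels of the 4 kinase genes are compared on that scale, and the order of the isoforms depends on the length used (below). Their summed level was 88.1, 90.2 and 81.3 FPKM in Hsd11b1 libraries, against 66.0, 61.9 and 65.3 FPKM in EGFP libraries. All Hsd11b1 sums were above all EGFP sums, with means of 86.5 ± 4.64 and 64.4 ± 2.17 FPKM. Without Pdk4 the order turned, since the other 3 kinase genes together averaged 34.7 ± 1.26 FPKM in Hsd11b1 and 37.3 ± 1.27 FPKM in EGFP libraries. Pdk4 made up 59.5%, 61.1% and 59.1% of the kinase sum in Hsd11b1 libraries, against 43.1%, 42.0% and 41.2% in EGFP libraries. On this scale it was the leading kinase transcript in every library, and its share was 17.8 percentage points higher in Hsd11b1 libraries. Per kilobase of the principal transcript it still led in the 3 Hsd11b1 libraries, while Pdk3 was level with Pdk4 in EGFP library 1 and above it in EGFP library 3, and the Pdk4 share was 17.6 percentage points higher in Hsd11b1 libraries. The share of Pdk3 averaged 24.1% in Hsd11b1 and 35.3% in EGFP libraries, that of Pdk1 8.98% and 14.2%, and that of Pdk2 7.05% and 8.45%, the last with overlapping libraries. These shares must sum to 100%, so a higher share of one isoform lowers the others.

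Ratios between isoforms within a library do not depend on the library total. Pdk4 over Pdk1 was 6.68 ± 0.391 in Hsd11b1 and 2.97 ± 0.123 in EGFP libraries, a 2.25-fold difference. Pdk4 over Pdk3 was 2.49 ± 0.143 in Hsd11b1 and 1.19 ± 0.0378 in EGFP libraries, 2.09-fold. For Pdk4 over Pdk2 the ratio was 8.51 ± 0.497 in Hsd11b1 and 5.07 ± 0.930 in EGFP libraries, 1.68-fold. In all 3 ratios the groups did not overlap, and the exact permutation p was 0.1, the smallest possible with 3 against 3 libraries. The 3 ratios share Pdk4, which already stood apart by itself, so they are not separate results.

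**Figure D3:**
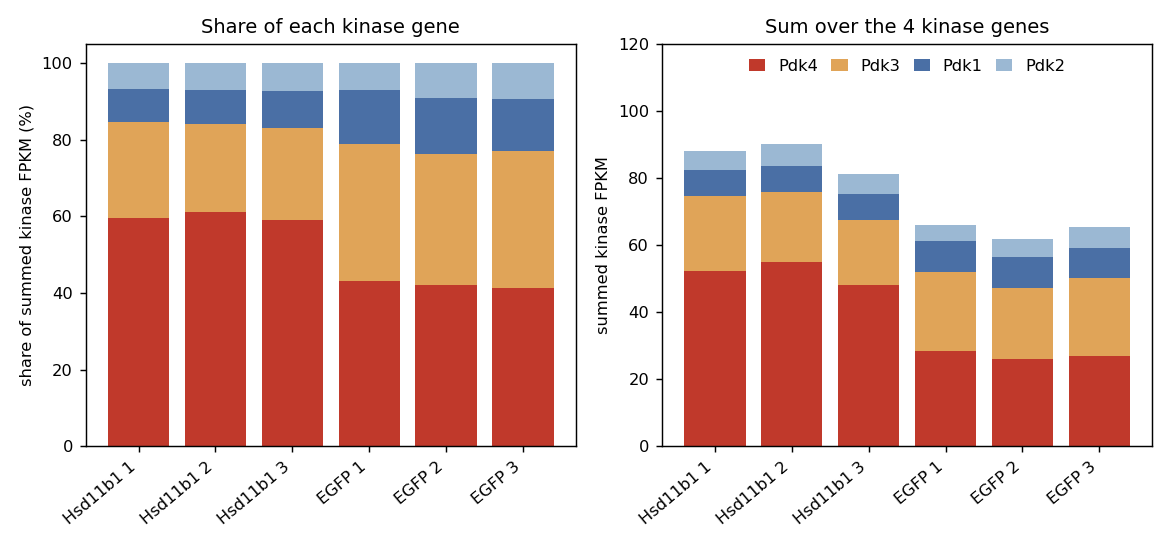
Left, the share of each kinase gene in the summed kinase FPKM of each library, in percent, and right, the sum itself in FPKM, with Hsd11b1 libraries 1 to 3 before EGFP libraries 1 to 3. The red Pdk4 segment takes 59.1% to 61.1% of the sum in Hsd11b1 libraries and 41.2% to 43.1% in EGFP libraries, and the remaining segments add up to slightly less FPKM in Hsd11b1 libraries.

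Pdp1 (ENSMUSG00000049225, chr4:11958184-11966452, minus strand) encodes the catalytic subunit of the calcium-stimulated phosphatase that opposes the kinases. Its level was 15.6, 15.4 and 12.4 FPKM in Hsd11b1 libraries, against 11.9, 10.9 and 12.1 FPKM in EGFP libraries. The groups did not overlap, but Hsd11b1 library 3, the deepest, stood close to the EGFP libraries and apart from the other Hsd11b1 libraries. The log2 difference was 0.29 (SE 0.09, 95% confidence interval 0.07 to 0.50), with a limma adjusted p of 0.0926. Without Hsd11b1 library 3 it was 0.39 and passed (limma adjusted p = 0.0191). That was the only pass among the 6 fits that left out a library (limma adjusted p up to 0.275). Pdp1 passed in 3 of 17 alternatives. The authors' deposited table gave 0.31 with an adjusted p of 0.0260. The summed kinase level over that of Pdp1 was 5.67, 5.85 and 6.57 in Hsd11b1 libraries, against 5.54, 5.70 and 5.41 in EGFP libraries, so this ratio of kinase to phosphatase transcripts overlapped between the groups. Pdp2, the other phosphatase catalytic subunit, was lower, at 2.32 ± 0.169 FPKM in Hsd11b1 and 2.42 ± 0.0971 FPKM in EGFP libraries. The phosphatase regulatory subunit gene Pdpr stood at 8.41 ± 0.173 and 8.30 ± 1.50 FPKM. Neither passed (limma adjusted p = 0.786 for Pdp2 and 0.909 for Pdpr).

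Pdha1 (ENSMUSG00000031299, chrX:160122209-160138413, minus strand) encodes the E1 alpha subunit, the one the kinases phosphorylate. It was the most abundant of the 9 transcripts, at 150.3, 147 and 138 FPKM in Hsd11b1 libraries, against 128, 119 and 118 FPKM in EGFP libraries. All Hsd11b1 libraries were above all EGFP libraries. The log2 difference was 0.25 (SE 0.07, 95% confidence interval 0.09 to 0.41), and limma's adjusted p of 0.0511 lay just outside the threshold. Pdha1 passed under 5 of 17 alternative settings, among them a filter at a mean FPKM of 5 (limma adjusted p = 0.0468) and median-of-ratios scaling (0.0484). It did not pass with quantile normalization (limma adjusted p = 0.133) or a replicate block (0.0987). With a library left out, Pdha1 was called in 1 of 6 fits (limma adjusted p 0.0481 to 0.192). In the authors' deposited table it had a log2 fold change of 0.26 and an adjusted p of 0.00484. Of the exons of Pdha1, 603 bases overlap exons of Map3k15 on the opposite strand, and whether the counting used strand is not given in the sources used here. Map3k15 stood at 32.5, 31.8 and 27.2 FPKM in Hsd11b1 libraries, against 29.0, 25.7 and 25.2 FPKM in EGFP libraries (limma adjusted p = 0.231), and reads of the shared bases cannot be told apart.

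Pdhb (ENSMUSG00000021748, chr14:8165996-8173025, minus strand) encodes the E1 beta subunit, which pairs with the alpha subunit in the enzyme. Its level was 13.5, 14.0 and 13.7 FPKM in Hsd11b1 libraries, against 13.4, 15.1 and 13.5 FPKM in EGFP libraries. The libraries overlapped, and the log2 difference was -0.03 (95% confidence interval -0.18 to 0.13, limma adjusted p = 0.864). The ratio of Pdha1 to Pdhb was 10.6 ± 0.520 in Hsd11b1 and 8.70 ± 0.825 in EGFP libraries, without overlap. Its size depends on the length used, since per kilobase of the principal transcript it was 5.43 ± 0.267 and 4.47 ± 0.424. Pdha1 already stood apart by itself, so this ratio is not a separate result. A pseudogene of Pdhb, Gm6123, matches its transcript at 97.0% over 1079 bases and is not among the listed genes. Whether any Pdhb reads were placed there cannot be told from the listed values.

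Mpc1 and Mpc2 encode the subunits of the mitochondrial pyruvate carrier, which works as a heterodimer in the inner membrane. Mpc1 (ENSMUSG00000023861, chr17:8282904-8297661, plus strand) stood at 14.0, 12.7 and 12.0 FPKM in Hsd11b1 libraries, against 13.1, 14.5 and 13.4 FPKM in EGFP libraries. Mpc2 (ENSMUSG00000026568, chr1:165460637-165481214, plus strand) stood at 2.53, 2.41 and 3.01 FPKM in Hsd11b1 libraries, against 2.45, 2.78 and 2.70 FPKM in EGFP libraries. Neither subunit separated the groups. The log2 difference was -0.08 for Mpc1 (95% confidence interval -0.25 to 0.10, limma adjusted p = 0.585) and, for Mpc2, the interval ran from -0.20 to 0.20 around an estimate near 0 (limma adjusted p = 0.998). The value of Mpc1 is uncertain because the processed pseudogene Mpc1-ps matches it at 99.7% over 330 bases. Mpc1-ps held 405, 482 and 1577 recovered reads in Hsd11b1 libraries, against 509, 983 and 422 in EGFP libraries. In number this is near the 533, 492 and 1468 and the 544, 1056 and 453 reads of Mpc1 itself. Scaled by length Mpc1-ps was far above Mpc1, at 67.1, 78.3 and 81.5 FPKM in Hsd11b1 libraries, against 77.4, 85.2 and 78.6 FPKM in EGFP libraries. How reads were divided between the gene and this copy was not tested. A further 480 exonic bases of Mpc1 overlap 4930506C21Rik on the opposite strand. For Pdk1, Pdk2, Pdk3, Pdk4, Pdp1 and Mpc2 no copy of at least 95% identity over 100 bases was found.

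Among the 9 genes, the order of levels in Hsd11b1 libraries was Pdha1 (144.9 FPKM), Pdk4 (51.8), Pdk3 (20.8), Pdp1 (14.4), Pdhb (13.7), Mpc1 (12.9), Pdk1 (7.76), Pdk2 (6.09) and Mpc2 (2.65). In EGFP libraries it was Pdha1 (121 FPKM), Pdk4 (27.1), Pdk3 (22.7), Pdhb (14.0), Mpc1 (13.7), Pdp1 (11.6), Pdk1 (9.12), Pdk2 (5.43) and Mpc2 (2.65). Neighbours overlapped for Pdp1 with Pdhb and for Pdhb with Mpc1 in Hsd11b1 libraries, and for Pdhb with Mpc1 in EGFP libraries. The order depends on the length used. Over all annotated exons Mpc2 is 7344 bases long and over its principal transcript 1025 bases, and Pdhb 3861 and 1513 bases, while Pdk4 hardly differs at 3511 and 3484 bases. Per kilobase of the principal transcript, Mpc2 averaged 19.0 in both groups, Pdhb averaged 35.0 in Hsd11b1 and 35.7 in EGFP libraries, and Pdk4 came 5th in EGFP libraries at 27.3. On that scale Pdk4 still made up 53.4% of the kinase sum in Hsd11b1 and 35.9% in EGFP libraries, and in EGFP libraries Pdk3, at 27.5, was level with Pdk4.

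The genes whose profile over the 6 libraries lay nearest to that of Pdk4 were found by the root mean square difference of log2(FPKM + 1) after centring each gene. They were Fam214a (0.0216, with 9.36 ± 0.687 FPKM in Hsd11b1 and 4.65 ± 0.328 FPKM in EGFP libraries), Npc1, a lysosomal cholesterol transporter (0.0243, with 14.6 ± 0.835 and 7.21 ± 0.447 FPKM), and Gclc, the catalytic subunit of the first enzyme of glutathione synthesis (0.0434, with 99.1 ± 5.03 and 49.8 ± 3.17 FPKM). Like Pdk4, all 3 had log2 differences near 1 (0.87, 0.93 and 0.98) and, among Hsd11b1 libraries, their lowest level in library 3. Such likeness follows from choosing them by nearness to the Pdk4 profile. Nearest to Pdha1, the member with the next smallest p, were Ttpal (0.0150, with 11.3 ± 0.648 FPKM in Hsd11b1 and 9.36 ± 0.336 FPKM in EGFP libraries), Ttc21b (0.0198, with 4.34 ± 0.235 and 3.42 ± 0.125 FPKM) and Plcxd2 (0.0199, with 1.24 ± 0.0614 and 0.881 ± 0.0589 FPKM). Such nearness describes these 6 libraries only.

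Genes around the complex were taken from 7 lists with 73 genes, of which 64 were listed and 60 tested. With 3 called higher and 4 called lower, 7 of 60 passed, close to the 12.1% of all tested genes. The rest of the complex and its phosphatase subunits had 0 of 5 called by limma, also 0 at an unadjusted p under 0.05 and 0 with voom on recovered reads. The median log2 difference was -0.04, against -0.01 for all tested genes. Its E2 gene Dlat, which carries the lipoyl arms, stood at 10.1 ± 0.377 FPKM in Hsd11b1 and 10.7 ± 0.131 FPKM in EGFP libraries. The E3 gene Dld, shared with other 2-oxoacid dehydrogenases, stood at 19.6 ± 2.20 and 20.5 ± 0.627 FPKM, and the E3-binding protein gene Pdhx at 5.51 ± 0.156 and 5.50 ± 0.339 FPKM. Lipoylation and thiamine supply, which provide the cofactors of E2 and E1, had 0 of 7 called by limma, and likewise 0 at an unadjusted p under 0.05 and 0 with voom, with a median of -0.01. The thiamine transporter gene Slc19a2, the highest of the list, stood at 11.3 ± 0.423 FPKM in Hsd11b1 and 11.9 ± 0.740 FPKM in EGFP libraries. The lipoyltransferase gene Lipt1 stood at 2.42 ± 0.261 FPKM in Hsd11b1 and 2.09 ± 0.0788 FPKM in EGFP libraries. Mecr and Mcat, of the mitochondrial fatty acid synthesis that supplies lipoate, stood at 4.74 ± 0.807 and 6.49 ± 0.569 FPKM in Hsd11b1 libraries, against 5.53 ± 0.703 and 6.26 ± 0.849 FPKM in EGFP libraries.

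Of the genes that make or use pyruvate and lactate, 2 of 11 fell, and the median was -0.02. Among all tested genes 5.84% were called lower. Slc16a1, which encodes the monocarboxylate transporter MCT1 for lactate and pyruvate, stood at 12.0, 10.7 and 10.5 FPKM in Hsd11b1 libraries, against 15.7, 16.8 and 14.8 FPKM in EGFP libraries. The groups were well apart, with a log2 difference of -0.47 (SE 0.08) and a limma adjusted p of 0.00530. Ldha, the lactate dehydrogenase subunit that favours lactate formation, stood at 213, 204 and 221 FPKM in Hsd11b1 libraries, against 258, 283 and 250.0 FPKM in EGFP libraries. It fell by 0.31 on the log2 scale (SE 0.08, limma adjusted p = 0.0353), a call that was lost with any 1 library left out (adjusted p 0.0529 to 0.161). Ldhb, the other subunit, was much lower at 6.12 ± 0.541 FPKM in Hsd11b1 and 6.33 ± 1.68 FPKM in EGFP libraries. Bsg, the chaperone of MCT1 and the most abundant of the list, stood at 353 ± 22.8 and 329.9 ± 13.6 FPKM, and the pyruvate kinase gene Pkm at 304 ± 12.4 and 326 ± 23.2 FPKM, with limma adjusted p of 0.509 and 0.513. The malic enzyme gene Me2 stood at 12.2 ± 0.409 FPKM in Hsd11b1 and 14.1 ± 0.832 FPKM in EGFP libraries, and the alanine transaminase gene Gpt2 at 6.80 ± 0.364 and 6.03 ± 0.227 FPKM, neither of which passed (limma adjusted p = 0.104 and 0.223). Pcx, whose enzyme carboxylates pyruvate to oxaloacetate and so competes with the complex, stood at 27.2 ± 2.49 and 25.7 ± 2.03 FPKM.

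**Figure D4:**
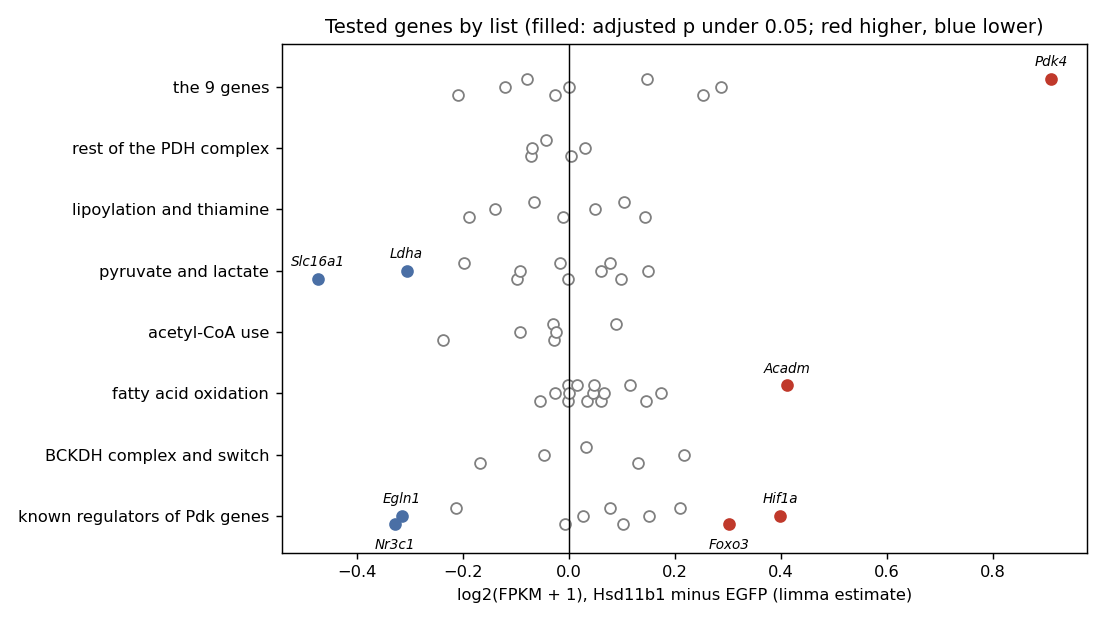
The log2(FPKM + 1) difference, Hsd11b1 minus EGFP, of the 9 genes and of the 60 tested genes of 7 pathway lists, 1 point per gene, filled red where higher and filled blue where lower at an adjusted p under 0.05 (limma). Pdk4 at 0.91 lies beyond every other point, and 7 of the 60 pathway genes are filled.

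Genes that use acetyl-CoA had 0 of 6 called by limma, with 1 at an unadjusted p under 0.05 (Acly, which passed with quantile normalization, arrayWeights and voom on recovered reads), and a median of -0.03. Acly, which splits exported citrate into acetyl-CoA for lipid synthesis, stood at 50.4 ± 3.41 FPKM in Hsd11b1 and 59.6 ± 1.79 FPKM in EGFP libraries (limma adjusted p = 0.0664). The citrate synthase gene Cs stood at 97.0 ± 2.28 FPKM in Hsd11b1 and 103.6 ± 2.27 FPKM in EGFP libraries. Acss2, which makes acetyl-CoA from acetate, stood at 2.40 ± 0.120 FPKM in Hsd11b1 and 2.20 ± 0.124 FPKM in EGFP libraries, and the thiolase gene Acat1 at 25.3 ± 0.602 and 25.8 ± 0.929 FPKM. In fatty acid oxidation, the other main source of mitochondrial acetyl-CoA, the median was 0.05. Of its 15 genes 1 rose, against 6.22% of all tested genes called higher. That gene was Acadm, the medium-chain acyl-CoA dehydrogenase, at 21.5, 21.4 and 19.7 FPKM in Hsd11b1 libraries, against 15.5, 15.9 and 14.8 FPKM in EGFP libraries. Its groups lay well apart, with a log2 difference of 0.41 (SE 0.07, limma adjusted p = 0.00463). The carnitine palmitoyltransferase gene Cpt1a, which controls entry of long-chain fatty acids and was the most abundant of this list, stood at 39.0 ± 1.70 FPKM in Hsd11b1 and 37.8 ± 0.650 FPKM in EGFP libraries. The very-long-chain dehydrogenase gene Acadvl stood at 33.8 ± 1.71 and 33.5 ± 1.06 FPKM, and the short-chain gene Acads at 12.6 ± 0.779 and 11.1 ± 1.06 FPKM, with limma adjusted p of 0.923 and 0.237. Slc25a20 and Cpt2, which complete the carnitine shuttle, stood at 5.89 ± 0.279 and 9.78 ± 0.229 FPKM in Hsd11b1 libraries, against 5.24 ± 0.363 and 8.98 ± 0.814 FPKM in EGFP libraries, and did not pass (limma adjusted p = 0.266 and 0.408).

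The branched-chain 2-oxoacid dehydrogenase is a related complex with its own kinase and phosphatase, and of its 5 genes 0 were called by limma, 0 at an unadjusted p under 0.05 and 0 with voom on recovered reads. The kinase gene Bckdk, the nearest relative of the Pdk genes, stood at 16.5 ± 0.538 FPKM in Hsd11b1 and 18.7 ± 2.54 FPKM in EGFP libraries (limma adjusted p = 0.312). Its E1 alpha gene Bckdha stood at 15.1 ± 1.15 and 12.9 ± 1.59 FPKM (limma adjusted p = 0.206), its E1 beta gene Bckdhb at 8.79 ± 0.636 and 9.11 ± 0.714 FPKM, and the phosphatase gene Ppm1k at 2.19 ± 0.405 and 1.90 ± 0.128 FPKM. The median was 0.03.

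Of the factors known from other tissues to regulate Pdk genes, 2 of 11 rose and 2 fell, and the median was 0.08. Among all tested genes 6.22% were called higher and 5.84% lower. Foxo3, a forkhead factor, stood at 29.4, 29.7 and 30.3 FPKM in Hsd11b1 libraries, against 23.0, 24.2 and 24.7 FPKM in EGFP libraries (log2 difference 0.30, SE 0.06, limma adjusted p = 0.0131). The groups were apart and tight, although the call was lost in 2 of the 6 fits that left out a library (adjusted p up to 0.0629). Hif1a, the hypoxia factor subunit, stood at 33.9, 36.1 and 28.1 FPKM in Hsd11b1 libraries, against 25.2, 21.9 and 26.6 FPKM in EGFP libraries (log2 difference 0.40, SE 0.11, limma adjusted p = 0.0453). Its spread was wider, with Hsd11b1 library 3 near EGFP library 3, and the call held in 1 of 6 fits with a library left out (adjusted p 0.0171 to 0.158).

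Egln1, the prolyl hydroxylase that marks HIF for breakdown, stood at 18.6, 18.9 and 20.2 FPKM in Hsd11b1 libraries, against 23.4, 25.6 and 23.7 FPKM in EGFP libraries. It fell by 0.32 on the log2 scale (SE 0.07) with a limma adjusted p of 0.0175, and the call held in 3 of 6 fits with a library left out (adjusted p up to 0.0833). Nr3c1, the glucocorticoid receptor, stood at 17.3, 17.6 and 15.3 FPKM in Hsd11b1 libraries, against 22.3, 19.6 and 21.9 FPKM in EGFP libraries. Its groups did not overlap, and it fell by 0.33 on the log2 scale (SE 0.08) at a limma adjusted p of 0.0316, with the call kept in 1 of 6 such fits (adjusted p up to 0.111). Foxo1, a relative of Foxo3, stood at 3.78 ± 0.239 FPKM in Hsd11b1 and 3.45 ± 0.0374 FPKM in EGFP libraries and did not pass (limma adjusted p = 0.437). Ppara, Pparg, Ppargc1a and Epas1 were not listed.

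**Figure D5:**
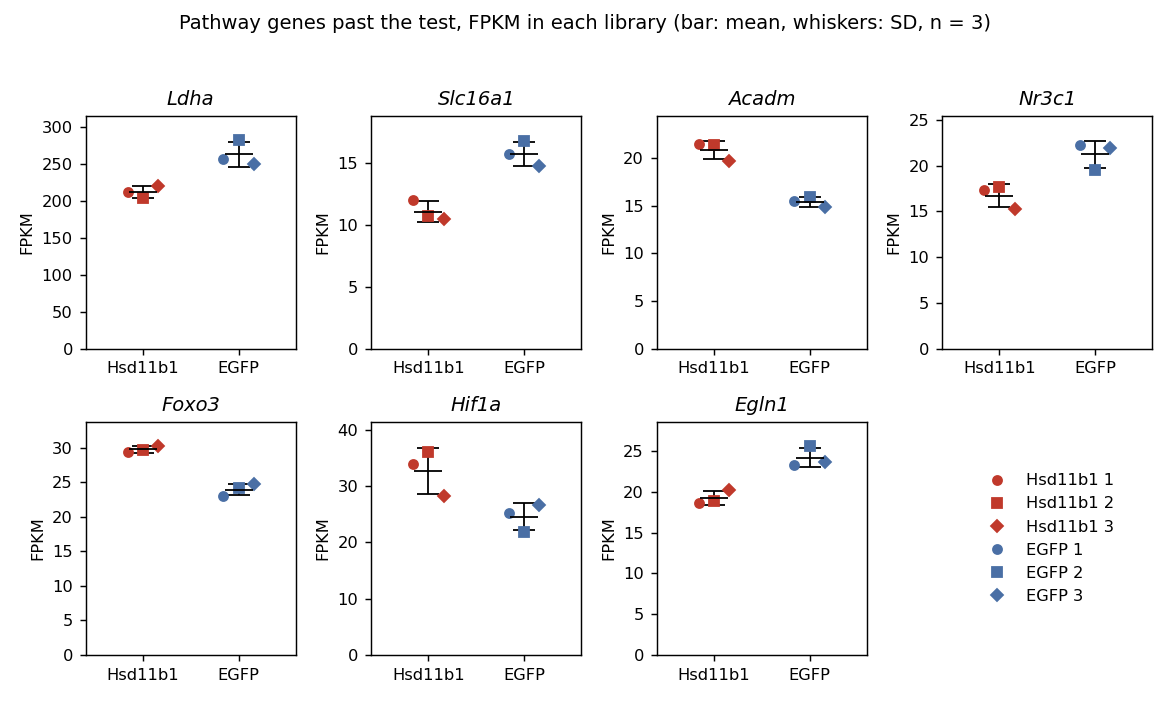
FPKM in each library, Hsd11b1 left and EGFP right, of the 7 pathway genes that passed the test, with the mean as a bar and the SD as whiskers (n = 3). Slc16a1, Ldha, Nr3c1 and Egln1 lie lower and Acadm, Foxo3 and Hif1a higher in Hsd11b1 libraries, and Hif1a has the widest spread relative to its group means.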

How the data were processed

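The authors deposited a table of FPKM values per gene and library, with their own log2 fold change, p-value and adjusted p-value. Per the submitters' processing notes, reads were handled with cutadapt 2.5, HISAT2 2.1.0 and featureCounts 1.6.3 on mm10. Per the labels, RNA was isolated with TRIzol and libraries were stranded. Annotation release, strandedness of the counting and the authors' test were not stated in these sources.

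The test here was limma 3.58.1 in R 4.3.3 (lmFit, eBayes with a trend) on log2(FPKM + 1), Hsd11b1 minus EGFP, two-sided, for 13120 genes whose FPKM averaged 1 or more. P-values were adjusted by Benjamini-Hochberg over all of them, with a threshold of 0.05. Adding 1 understates fold changes of low genes. Reads were recovered from FPKM with GENCODE M21 exon lengths, and 93.7% to 94.9% of values up to 1000 reads per library were whole within 0.05. Single genes and ratios also had exact permutation tests. The fit was also run on simulated counts with the same extra spread for every gene, which need not hold in these data. No result here rests on that run. The 9 genes and the pathway and marker lists were chosen with earlier results of these data known. Of each pathway list, the text names the called genes, those with the smallest p (up to 4) and the most abundant 2, with Pdhx, Ldhb, Pcx and Foxo1 added after their values were seen. A few genes that this rule takes are not reported here. Deviations of same-numbered libraries had correlations of mixed sign (closing section), and no pairing was used in the main test.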

Additional observations from a re-analysis of the deposited data

How the results depend on the processing

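Pdk4 kept its direction and its call in 17 of 17 alternatives (log2 difference 0.82 to 0.96, limma adjusted p up to 0.00331). Its share of the kinase sum was 17.2 to 18.3 percentage points higher in Hsd11b1 libraries in 10 of 10. Among these, median-of-ratios scaling could not change the share, since a factor per library cancels in it. With limma's arrayWeights, 1357 genes were called higher and 1403 lower, 3 of the 9 genes higher and 1 lower, with Pdha1 at 0.30, Pdp1 at 0.32 and Pdk1 at -0.19 now passing. With voom on recovered reads, 2 of the 9 were called higher and 1 lower, with Pdha1 at 0.26 and Pdk1 at -0.24. A mean FPKM of at least 5 (Pdha1 at 0.25) and median-of-ratios scaling (Pdha1 at 0.26) each called 2 of the 9 higher. Without the 2 deepest libraries, 478 genes were called lower, 2 of the 9 higher with Pdp1 at 0.34, and Mpc1 stood at 0.0074. Leaving out 1 library in turn gave 483 to 719 genes higher and 412 to 618 lower, 1 to 2 of the 9 higher, 1 to 3 pathway genes higher and 1 to 3 lower, Pdp1 at 0.23 to 0.39 and Pdha1 at 0.23 to 0.29. The fewest calls came without Hsd11b1 library 2, and fewer samples are fitted in each. Where other calls moved, the cause was not tested. Same-numbered libraries had correlations of deviations of 0.21, -0.29 and -0.03. The largest between the groups, 0.418, was that of Hsd11b1 library 3 with EGFP library 2, the 2 deepest. Whether equal numbers mark a shared culture or batch is not given, and so few libraries cannot decide it. A replicate block left 688 genes higher and 628 lower, Pdk4 called (adjusted p = 0.000766) and 2 pathway genes higher and 2 lower. Principal-transcript lengths, an alternative chosen after seeing the data, changed the order of levels. The FPKM gave no interval for a level beyond the 3 libraries, and recovered reads cover counting error only.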
